A study of Nicotiana tabacum with 9 samples.

Results

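The SS18 family genes of tobacco (*Nicotiana tabacum*) were described across 9 RNA sequencing libraries. The family was taken as every gene whose domain description names SS18, which gave 6 of 69500 genes in the deposited expression table. Total RNA of young leaves, sampled during squaring (the stage of flower bud formation), was sequenced for NC82, M21 and G27, each represented by 3 libraries. NC82 bears the name of a flue-cured cultivar and served as the reference. The study asked how NtAN3 regulates leaf size, but the labels do not say which change of NtAN3 the lines M21 and G27 carry, by what promoter, whether a line is 1 clone, or whether replicates were separate plants. P-values therefore measure the spread between libraries, which may be technical.

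SS18 family proteins are transcriptional co-activators without a DNA-binding domain of their own. In Arabidopsis the family is known as GRF-interacting factors, and its member ANGUSTIFOLIA3 (AN3, also called GIF1) binds growth-regulating factors and recruits SWI/SNF chromatin remodelling complexes to their targets. Loss of AN3 in Arabidopsis gives narrow leaves with fewer cells, and its overexpression gives larger leaves with more cells. Tobacco is an allotetraploid, so a gene of one diploid ancestor commonly has a counterpart from the other. The table gave no gene name for any member, and none of the 6 identifiers was matched to a named gene, so which member or members the study calls NtAN3 is not stated here and members are called by identifier.

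Levels are the authors' normalized expression values, whose unit the table does not name. The smallest value above 0 differed between low genes, from 0.02 at the 10th percentile to 0.28 at the 90th. This spread also takes in differences of level between genes, so it cannot tell whether values were divided by gene length. Levels of different members are set side by side on the deposited scale, although a division by gene length is not stated. Library sums lay between 771390 and 790816, and relative depths estimated from low genes lay between 0.8 and 1.2 times that of NC82 replicate 1. The 107 genes of leaf photosynthesis (chlorophyll a/b binding proteins and the Rubisco small subunit) held 9.57% to 10.9% of each library's sum, and 46 seed and embryo genes summed to 17.4 to 24.2 in each library, with 15 to 19 of them above 0. A list of 165 genes with pollen allergen domains, which also takes expansins, held 0.211% to 0.246%, and 82 to 87 of them were above 0. On the third principal component, with 11.6% of the variance, 1 library of each genotype had a high score (G27 replicate 1, NC82 replicate 1 and M21 replicate 3, at 16.0 to 22.9), and the other 6 were spread from -18.9 to -2.06. Fewer cells of a type and less RNA per cell cannot be told apart in these leaf samples.

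The member with the largest differences was Nitab4.5_0007901g0050. Its level was 0.34, 0.25 and 0.25 in the 3 NC82 libraries, 5.0, 5.8 and 4.32 in the M21 libraries, and 760.1, 604.4 and 620.9 in the G27 libraries. The genotypes did not overlap, and every M21 library lay between the NC82 and the G27 libraries. The means were 0.28 ± 0.052 in NC82, 5.04 ± 0.741 in M21 and 661.8 ± 85.5 in G27 (SD, n = 3). As a ratio of means, M21 stood 18.0-fold and G27 2364-fold above NC82, and G27 131.3-fold above M21. Taken library against library, G27 exceeded NC82 by 1778-fold to 3040-fold, M21 exceeded NC82 by 12.7-fold to 23.2-fold, and G27 exceeded M21 by 104.2-fold to 175.9-fold.

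Nitab4.5_0007901g0050 passed the linear model test in each comparison. Genes were tested where 3 or more libraries reached a value of 1, which no NC82 library did for this gene. It was tested only because it was high in M21 and G27, so its tests and ranks against NC82 are descriptions. Tests were made with limma on log2(value + 1), a scale on which the change of a low gene is smaller than its ratio of means. On that scale the gene rose in G27 against NC82 by 9.01 (SE 0.11, 95% interval 8.77 to 9.25, limma adjusted p = 7.4e-12) and in M21 against NC82 by 2.23 (SE 0.11, 95% interval 1.99 to 2.47, limma adjusted p = 7.1e-07). The change in M21 against G27 was -6.78 (95% interval -7.02 to -6.54, limma adjusted p = 1.6e-10). The rise in G27 was rank 1 of the 33188 genes tested, and the rise in M21 was rank 51. Among all 69500 genes of the table, the gene ranked between 36276 and 37473 by level in the NC82 libraries, between 15990 and 20358 in the M21 libraries, and between 90 and 130 in the G27 libraries. With a pseudocount of 0.1 the fitted changes in M21 and G27 against NC82 were 3.76 and 10.77, so the size of the fitted change in M21 depended on the pseudocount by over 1.5 times, while the direction and the call did not.

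**Figure D1:**
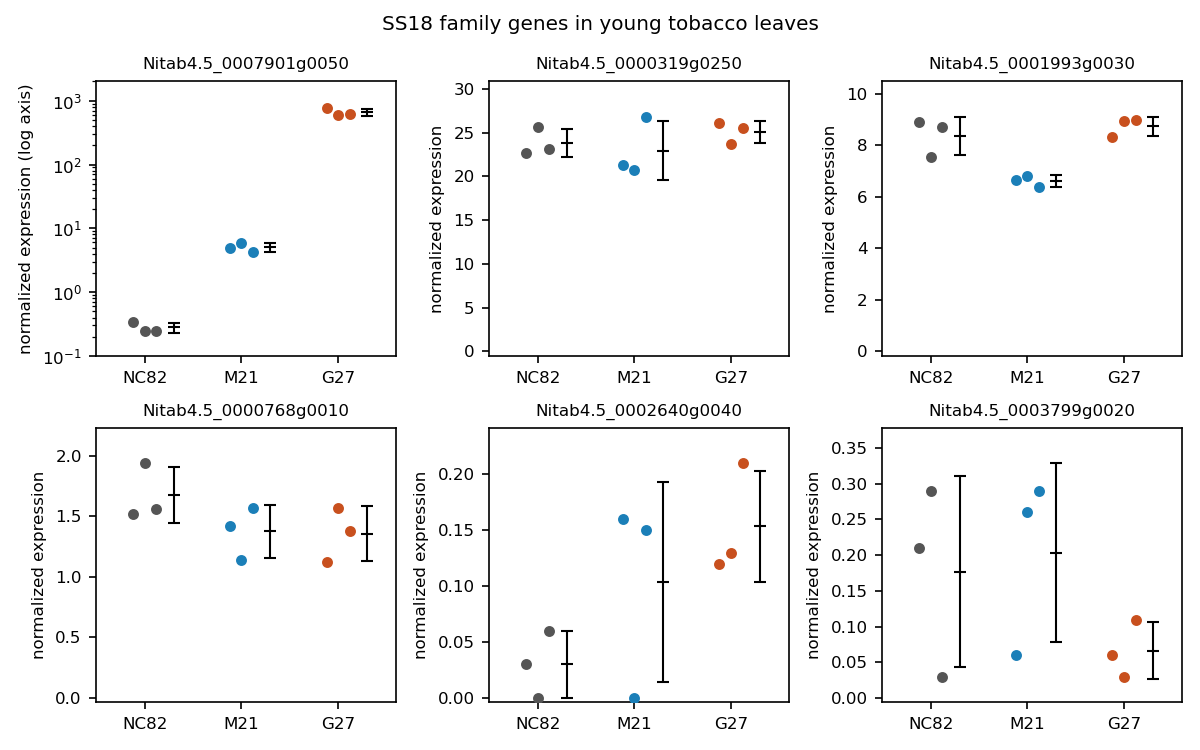
Normalized expression of the 6 SS18 family genes (vertical axes in the deposited table's unit, logarithmic in the first panel and linear in the others) in NC82, M21 and G27. Points are libraries, replicates 1 to 3 from left to right, and the bar beside them is the mean with its SD. Nitab4.5_0007901g0050 spans 0.25 to 760.1, whereas Nitab4.5_0000319g0250 stays between 20.8 and 26.8.

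The most abundant member in NC82 was Nitab4.5_0000319g0250. Its level was 22.7, 25.7 and 23.2 in NC82, 21.3, 20.8 and 26.8 in M21, and 26.1, 23.7 and 25.6 in G27. The ranges of the 3 genotypes overlapped, and the highest library and the lowest library were both from M21. The means were 23.8 ± 1.61, 22.96 ± 3.36 and 25.1 ± 1.24 (SD, n = 3) for NC82, M21 and G27. The log2 change was -0.06 in M21 against NC82 (95% interval -0.28 to 0.16, limma adjusted p = 0.72), 0.07 in G27 against NC82 (95% interval -0.14 to 0.29, limma adjusted p = 0.71) and -0.13 in M21 against G27 (95% interval -0.35 to 0.09, limma adjusted p = 0.46). These intervals allow fold changes from 0.784 to 1.22 on the scale of the value plus 1, and none of the 3 comparisons passed the test. By level in its library this gene ranked between 4481 and 5530 of all genes.

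Nitab4.5_0001993g0030 was lowest in M21. It stood at 8.90, 7.54 and 8.71 in NC82, at 6.66, 6.82 and 6.38 in M21, and at 8.33, 8.94 and 8.98 in G27. All 3 M21 libraries lay below every NC82 and every G27 library, while NC82 and G27 overlapped. The means were 8.38 ± 0.737 in NC82, 6.62 ± 0.223 in M21 and 8.75 ± 0.364 in G27 (SD, n = 3). M21 was lower than NC82 by a log2 change of -0.30 (SE 0.08, 95% interval -0.47 to -0.12, limma adjusted p = 0.019) and lower than G27 by -0.36 (SE 0.08, 95% interval -0.53 to -0.18, limma adjusted p = 0.016). G27 against NC82 gave 0.06 (95% interval -0.12 to 0.23, limma adjusted p = 0.71). Leaving out replicate 1 or 3 of either NC82 or M21 ended the call against NC82 (limma adjusted p = 0.057 to 0.076), and leaving out G27 replicate 3 or replicate 1 or 3 of M21 ended the call against G27 (0.055 to 0.056). Without the 3 libraries high on the third component the changes were -0.23 and -0.36, with limma adjusted p of 0.15 and 0.06.

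Nitab4.5_0000768g0010 was expressed at a low level in every library. Its values were 1.52, 1.94 and 1.56 in NC82, 1.42, 1.14 and 1.57 in M21, and 1.12, 1.57 and 1.38 in G27. The genotypes overlapped, with NC82 replicate 2 the highest library and G27 replicate 1 the lowest. The means were 1.67 ± 0.232, 1.38 ± 0.218 and 1.36 ± 0.226 (SD, n = 3). The log2 change was -0.17 in M21 (95% interval -0.43 to 0.09, limma adjusted p = 0.34) and -0.18 in G27 (95% interval -0.44 to 0.08, limma adjusted p = 0.38), each against NC82. M21 against G27 gave 0.01 (95% interval -0.25 to 0.27, limma adjusted p = 0.97).

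The other 2 members, Nitab4.5_0002640g0040 and Nitab4.5_0003799g0020, were not tested across all genes, since fewer than 3 libraries reached a value of 1. Nitab4.5_0002640g0040 stood at 0.03, 0 and 0.06 in NC82, at 0.16, 0 and 0.15 in M21, and at 0.12, 0.13 and 0.21 in G27. It was listed at 0 in 2 libraries, and all G27 libraries lay above all NC82 libraries, with M21 overlapping both. An exact permutation test over all assignments of the 9 libraries to the genotypes gave p = 0.15 (the smallest it can give is 0.0036). When limma was run without a filter, G27 against NC82 gave a log2 change of 0.16 (limma adjusted p = 0.16) for this gene. The exact test gave p = 0.039 without M21 replicate 2, the M21 library at 0.

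Nitab4.5_0003799g0020 stood at 0.21, 0.29 and 0.03 in NC82, at 0.06, 0.26 and 0.29 in M21, and at 0.06, 0.03 and 0.11 in G27. The genotypes overlapped, and NC82 alone spanned the range of all 9 libraries. The exact permutation test over genotypes gave p = 0.3. The smallest value above 0 was 0.03 for both of these low members, and their highest values were 0.21 and 0.29.

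The make-up of the family differed between the genotypes. The 6 members summed to 33.7, 35.7 and 33.8 in NC82, to 34.6, 34.8 and 39.5 in M21, and to 795.8, 638.8 and 657.1 in G27. G27 stood far above the other genotypes, which overlapped each other. Nitab4.5_0007901g0050 held 0.817% ± 0.168 of the sum in NC82, 14.0% ± 2.9 in M21 and 94.9% ± 0.56 in G27 (SD, n = 3). Nitab4.5_0000319g0250 held 69.3% ± 2.38, 63.0% ± 4.28 and 3.63% ± 0.316 in the same order, and Nitab4.5_0001993g0030 held 24.5% ± 2.9, 18.3% ± 1.91 and 1.27% ± 0.195. The order of the 3 leading members in NC82 was thus Nitab4.5_0000319g0250, Nitab4.5_0001993g0030 and Nitab4.5_0000768g0010, and in G27 it was Nitab4.5_0007901g0050, Nitab4.5_0000319g0250 and Nitab4.5_0001993g0030. Shares depend on the division of reads among members, which share sequence, and how the authors' tools divided them is not given in the sources used here.

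Without Nitab4.5_0007901g0050, the other 5 members summed to 34.1 ± 1.17 in NC82, 31.3 ± 3.44 in M21 and 35.4 ± 0.961 in G27 (SD, n = 3). The ranges were 33.3 to 35.4, 29.0 to 35.2 and 34.4 to 36.3, so the genotypes overlapped. Nitab4.5_0000319g0250 stood at 2.87 ± 0.466 times the level of Nitab4.5_0001993g0030 in NC82, 3.48 ± 0.631 times in M21 and 2.88 ± 0.24 times in G27, and these ratios overlapped between the genotypes. The whole family held 0.00427% to 0.00504% of a library's sum in NC82 and M21, and 0.0812% to 0.101% in G27.

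**Figure D2:**
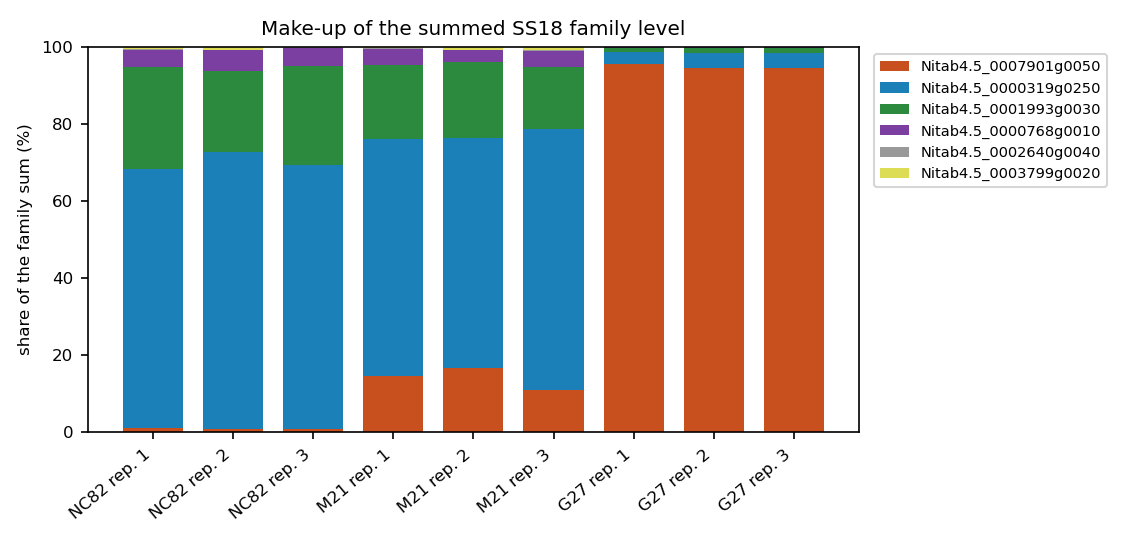
Share of the summed SS18 family level (vertical axis, percent) held by each of the 6 members in each of the 9 libraries. Nitab4.5_0007901g0050 holds a mean of 0.817% in NC82, 10.9% to 16.7% in M21 and 94.5% to 95.5% in G27.

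Set against all genes tested, the tested members other than Nitab4.5_0007901g0050 had log2 changes between -0.36 and 0.07. Of the 6 members, 4 passed the filter, and Nitab4.5_0007901g0050 passed it only through the M21 and G27 libraries, where it was high, so that counts over the tested members carry no weight of their own. In M21 against NC82, 2 of the 4 were called (1 up and 1 down), where 24.3% of all tested genes were called. In G27 against NC82, 1 of the 4 was called, where 13.9% of all tested genes were. In M21 against G27, 2 of the 4 were called, both lower in M21, where 11.9% of all tested genes were called in either direction and 6.4% were lower. M21 and G27 share the NC82 libraries in their comparisons with NC82.

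**Figure D3:**
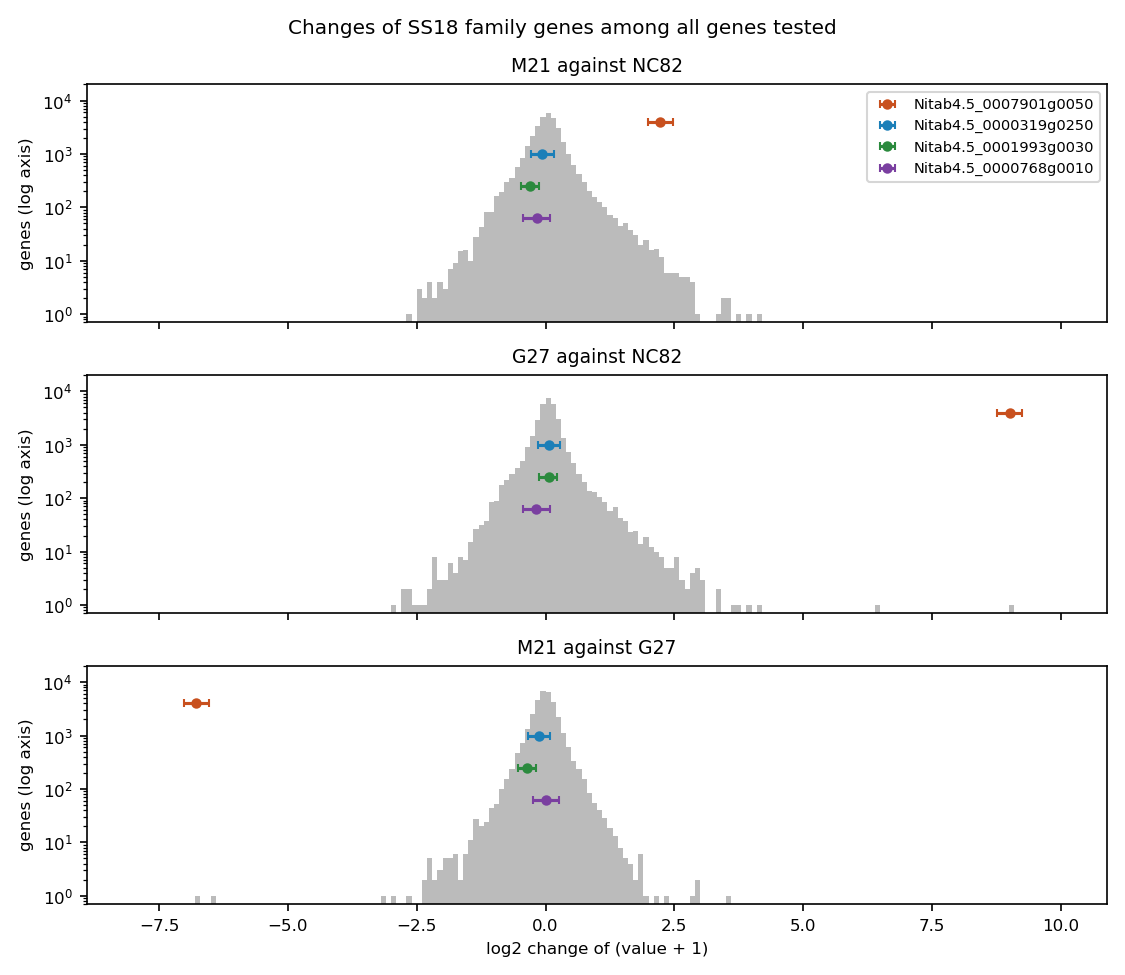
Log2 changes of the 4 tested SS18 members (coloured points with 95% intervals, placed at arbitrary heights) over the histogram of log2 changes of all 33188 tested genes (grey, number of genes on a logarithmic axis), for each comparison. Nitab4.5_0007901g0050 lies at 2.23, 9.01 and -6.78, and the other members lie between -0.36 and 0.07.

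The genes beside each member were read from the identifiers, which join a scaffold number and a gene number. Up to 3 genes on either side of the 6 members gave 26 neighbours, of which 13 were tested and 4 were listed at 0 in every library. Of the 13, limma called 1 in M21 against NC82, 1 in G27 against NC82 and 0 in M21 against G27. Over all tested genes the shares called were 24.3%, 13.9% and 11.9%. At an unadjusted p under 0.05 the neighbour counts were 1 higher and 2 lower, 2 higher and 1 lower, and 0 higher and 1 lower. Nitab4.5_0007901g0050 is the last numbered gene of a scaffold with 5 genes. Its nearest tested neighbour, the release factor-like pelota gene Nitab4.5_0007901g0020, stood at 10.5 ± 0.23 in NC82, 10.6 ± 0.125 in M21 and 11.1 ± 1.29 in G27 (SD, n = 3), with a log2 change of 0.06 in G27 (limma adjusted p = 0.69). The other neighbours, Nitab4.5_0007901g0030 of purine synthesis and the undescribed Nitab4.5_0007901g0040, reached at most 0.43 and 0.28 in any library. The rise of Nitab4.5_0007901g0050 was thus not seen in the genes numbered beside it.

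Beside Nitab4.5_0000319g0250, an EF-hand protein kinase of the calcium-dependent type, Nitab4.5_0000319g0240, rose in G27 from 2.68 ± 0.17 to 3.51 ± 0.179 (log2 change 0.29, limma adjusted p = 0.041), a call lost when any NC82 or G27 library, or M21 replicate 1, was left out (adjusted p up to 0.16 over the alternatives). An undescribed gene, Nitab4.5_0000319g0280, fell in M21 from 1.10 ± 0.199 to 0.223 ± 0.387 (limma adjusted p = 0.038), a call that was lost without M21 replicate 1 or 2 (adjusted p up to 0.13). No M21 library reached the filter's value of 1 (highest 0.67), so this gene was tested only through NC82 and G27 libraries. It could be fitted under 15 of the 18 alternatives. A gene with the domains of a growth-regulating factor, Nitab4.5_0000319g0230, lies 2 gene numbers before Nitab4.5_0000319g0250 and was at most 0.04 in any library.

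The scaffolds of Nitab4.5_0000319g0250 and Nitab4.5_0001993g0030 carried neighbours of the same kinds. Of the 15 pairs of member scaffolds, this was the only pair to share a description, and it shared 2. The EF-hand protein kinase description, found in 6 genes of the whole table, occurred in Nitab4.5_0000319g0240, 1 gene number before its SS18 gene, and in Nitab4.5_0001993g0050, 2 after. The auxin-induced ARG7 description of small auxin-up RNA proteins, found in 165 genes, occurred in Nitab4.5_0000319g0260 and Nitab4.5_0000319g0270 and in Nitab4.5_0001993g0060. The shorter scaffolds have few described genes, with 1 to 5 beside the SS18 gene against 29 on the scaffold of Nitab4.5_0000319g0250.

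Genes with the most similar profile were found by Pearson correlation of log2 values over the 9 libraries, among 33184 tested genes outside the family. The libraries form 3 genotypes, so for a member whose genotypes stood apart a high value can reflect mainly the order and spacing of the genotype means. For a member whose genotypes overlapped, it also takes in differences between libraries of the same genotype. For Nitab4.5_0007901g0050, 187 genes reached 0.9. The highest were an acyltransferase-type gene, Nitab4.5_0000185g0210 (r = 0.988), an aminotransferase of the diaminopimelate type, Nitab4.5_0008969g0020 (r = 0.988), and a PMR5-domain esterase, Nitab4.5_0001952g0120 (r = 0.979). The first of these stood at 7.99 ± 0.42, 8.69 ± 0.112 and 13.0 ± 0.332, and the esterase at 0.163 ± 0.058, 0.477 ± 0.047 and 1.37 ± 0.242 in NC82, M21 and G27 (SD, n = 3), which are far smaller differences than those of the SS18 gene. The esterase reached at most 0.23 in NC82 and 0.53 in M21. It passed the filter only through G27, where it was high, so it had to be higher there.

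For Nitab4.5_0001993g0030, 209 genes reached 0.9, with an oligopeptide transporter, Nitab4.5_0000270g0050 (r = 0.974), a GNS1/SUR4 membrane protein of the fatty acid elongase family, Nitab4.5_0003569g0010 (r = 0.967), and a basic leucine zipper gene, Nitab4.5_0000537g0020 (r = 0.963), at the top. The elongase-type gene stood at 10.1 ± 1.38 in NC82, 5.56 ± 0.356 in M21 and 11.7 ± 1.19 in G27 (SD, n = 3). For Nitab4.5_0000319g0250, 6 genes reached 0.9, led by the undescribed Nitab4.5_0008781g0020 (r = 0.915), the RWP-RK factor Nitab4.5_0002421g0020 (r = 0.911) and the undescribed Nitab4.5_0001019g0110 (r = 0.91). The last of these ranged from 0 to 4.43 in NC82 and from 0 to 3.69 in M21, so its correlation rests largely on single libraries. For Nitab4.5_0000768g0010, 8 genes did, led by a transcription factor IIS domain gene, Nitab4.5_0000337g0040 (r = 0.938), and the kinase-domain genes Nitab4.5_0007439g0030 (r = 0.935) and Nitab4.5_0006994g0010 (r = 0.933). Among the 4 tested members themselves, correlations lay between -0.47 and 0.391.

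Growth-regulating factors are the DNA-binding partners of AN3-type co-activators and carry a QLQ domain, through which they bind the SS18 protein, and a WRC domain, which binds DNA. A QLQ domain was named for 25 genes, and 8 of them passed the filter. Among the 8, Nitab4.5_0005167g0090 passed it only through the 3 G27 libraries, where it was high, so it had to differ. Nitab4.5_0004686g0010 also passed only with the help of G27 libraries, where it was high. The counts and medians that involve G27 include both genes and carry no weight of their own. M21 against NC82 gave 1 rise and 2 falls, beside 13.0% rises and 11.3% falls over all tested genes, and the median log2 change of the 8 was 0.04 against 0.03 for all tested genes. The rises in M21 numbered 2 with no filter on low values or with the filter on the mean, and the falls stayed at 2. G27 against NC82 gave 2 rises and 1 fall, beside 7.87% and 6.05%, with a median of 0.09 against 0.05. In M21 against G27, 1 was higher and 1 lower, where 5.47% were higher and 6.4% lower, and the medians were -0.05 and -0.01. With no filter on low values or the filter on the mean, limma called 0 higher and 2 lower in M21 than in G27. The wider pattern, QLQ or WRC, took 37 genes with 17 tested, among them JmjC-domain genes. Of these, 2 rose and 2 fell in each line against NC82, and 1 was higher and 1 lower in M21 against G27.

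Nitab4.5_0005167g0090 differed most among these factors. It stood at 0.65, 0.34 and 0.45 in NC82, at 0.34, 0.22 and 0.85 in M21, and at 2.08, 2.33 and 2.10 in G27. All G27 libraries lay above all others, and NC82 and M21 overlapped. Since no NC82 or M21 library reached the filter's value of 1, the gene was tested only because it was high in G27, and its tests are descriptions. It rose in G27 against NC82 by a log2 change of 1.10 (SE 0.16, limma adjusted p = 0.00074), and M21 was lower than G27 by -1.13 (SE 0.16, limma adjusted p = 0.0014). With a pseudocount of 0.1 these changes were 2.00 and -2.15, and the gene dropped below the filter when a G27 library was left out. Nitab4.5_0004686g0010 rose in G27 from 0.903 ± 0.232 to 1.60 ± 0.227 (limma adjusted p = 0.033) and stood at 0.977 ± 0.15 in M21 (SD, n = 3). Leaving out NC82 replicate 1 or 3, or G27 replicate 1 or 2, ended that call (adjusted p up to 0.23 over the alternatives).

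Other growth-regulating factors moved in M21. Nitab4.5_0001494g0010 stood at 7.70, 8.33 and 7.88 in NC82, at 6.03, 6.22 and 5.96 in M21, and at 6.92, 7.84 and 7.08 in G27. M21 lay below both other genotypes without overlap, although only the comparison with NC82 passed. It fell in M21 against NC82 by -0.34 (SE 0.07, limma adjusted p = 0.0064), and M21 against G27 gave -0.23 (limma adjusted p = 0.077). Nitab4.5_0001033g0050 rose in M21 from 7.02 ± 0.599 to 10.3 ± 1.78 (limma adjusted p = 0.015), was 7.27 ± 0.972 in G27 (SD, n = 3), and was higher in M21 than in G27 by 0.44 (limma adjusted p = 0.041). Leaving out NC82 replicate 2 or M21 replicate 3 ended the first call. The other ended without replicate 2 or 3 of NC82 or G27, or replicate 1 or 3 of M21. Nitab4.5_0001426g0010 fell in both lines, from 3.31 ± 0.055 in NC82 to 2.46 ± 0.215 in M21 (limma adjusted p = 0.022) and 2.36 ± 0.182 in G27 (limma adjusted p = 0.018). Leaving out any NC82 library ended both calls, as did leaving out M21 replicate 1 or 2 for the first and G27 replicate 3 for the other. The WRC-only genes Nitab4.5_0003600g0010, which rose in M21 from 2.40 ± 0.19 to 3.67 ± 0.806, and Nitab4.5_0003541g0030, which fell in G27 from 2.04 ± 0.246 to 1.00 ± 0.24, completed the called genes of the wider list (limma adjusted p = 0.027 and 0.0094), and leaving out M21 replicate 3 or NC82 replicate 2 or 3 ended the call of Nitab4.5_0003600g0010.

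**Figure D4:**
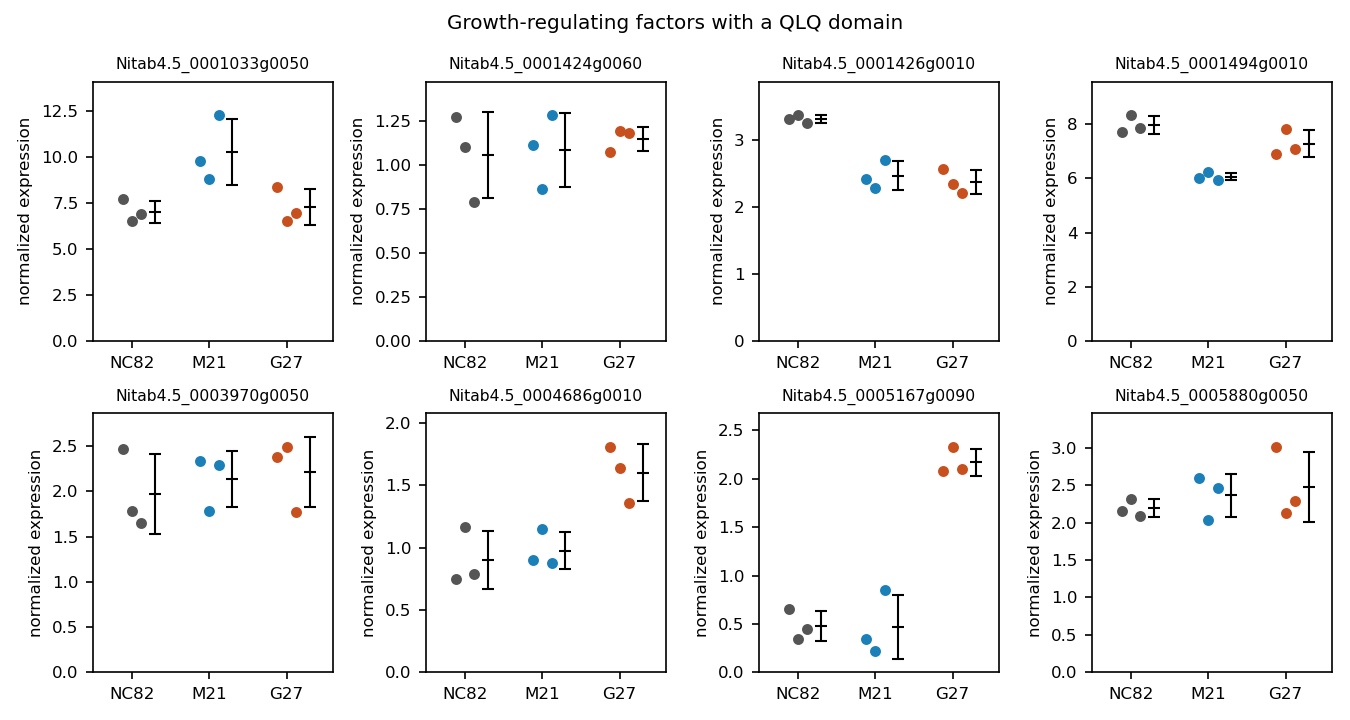
Normalized expression (vertical axes in the deposited table's unit, starting at 0) of the 8 tested growth-regulating factors with a QLQ domain in NC82, M21 and G27. Points are libraries, replicates 1 to 3 from left to right, and the bar beside them is the mean with its SD. Nitab4.5_0005167g0090 is at 2.08 to 2.33 in G27 and at most 0.85 elsewhere.

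SWI/SNF complexes are the remodellers that AN3 recruits in Arabidopsis, and they hold SNF2-type ATPases and subunits with SWIRM, SWIB or SNF5 domains. Genes were listed by these words in their descriptions, and whether a listed gene belongs to a SWI/SNF complex was not checked. Shares of called genes in the lists that follow stand beside 24.3% of all tested genes in M21 against NC82, 13.9% in G27 against NC82 and 11.9% in M21 against G27. Of 60 tested SNF2-type helicases, a description that also takes other remodellers, limma called 0 higher and 2 lower in M21 against NC82 (3.33%), 1 higher and 2 lower in G27 against NC82 (5.0%), and 0 in M21 against G27. At an unadjusted p under 0.05 the counts were 2 higher and 2 lower, 12 higher and 3 lower, and 0 higher and 1 lower. The median log2 changes were 0.07, 0.11 and -0.06, against 0.03, 0.05 and -0.01 for all tested genes. Leaving out any NC82 library left 1 fall in either line, and 0 rose in G27 without NC82 replicate 1, M21 replicate 1 or G27 replicate 1. The gene called higher in G27 in the main fit also lost its call without G27 replicate 2 or 3 (limma adjusted p up to 0.17 over the alternatives).

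Of 60 tested genes with SWIRM, SWIB or SNF5 domains, 2 rose and 11 fell in M21 against NC82 (21.7%), 3 rose and 5 fell in G27 against NC82 (13.3%), and 3 were lower in M21 than in G27 (5.0%). In that last comparison limma called 0 higher, and 0 were higher at an unadjusted p under 0.05. The shares in both lines, which take both directions together, were near those of all genes. By direction, 13.0% of all tested genes rose and 11.3% fell in M21, and 7.87% rose and 6.05% fell in G27. The split by direction was not tested. Leaving out NC82 replicate 2 or M21 replicate 1 left 1 rise in M21. The SNF2-type helicase Nitab4.5_0006542g0020 fell from 4.01 ± 0.127 in NC82 to 2.20 ± 0.175 in M21 and 2.20 ± 0.19 in G27 (SD, n = 3), with limma adjusted p of 0.00036 and 0.0005. The SWIB-domain gene Nitab4.5_0006785g0040 rose from 1.26 ± 0.055 to 2.54 ± 0.482 and 3.04 ± 0.29 (limma adjusted p = 0.0018 and 0.00046), and Nitab4.5_0000634g0010, with SWIB and Plus-3 domains, fell from 7.99 ± 0.216 to 5.04 ± 0.31 and 5.11 ± 0.272 (limma adjusted p = 0.00032 and 0.00052).

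Families linked to AN3 or to leaf growth in Arabidopsis were counted in the same way. Of 38 tested TCP factors, 3 rose and 3 fell in M21 (15.8%) and 2 rose and 1 fell in G27 (7.89%), each against NC82, and 1 was higher and 1 lower in M21 than in G27 (5.26%). Leaving out any NC82 or G27 library, or M21 replicate 3, left 1 rise in G27, and 3 fell in G27 without M21 replicate 3 or G27 replicate 1. The number of TCP factors called higher in M21 than in G27 was 0 without M21 replicate 1 or 3 or without G27 replicate 3. The number called lower was 2 without G27 replicate 1 or 3. The TCP gene Nitab4.5_0000365g0240 fell from 5.35 ± 0.553 in NC82 to 1.97 ± 0.246 in M21 and 2.83 ± 0.39 in G27 (limma adjusted p = 5.2e-05 and 0.001). Another, Nitab4.5_0007375g0060, rose in M21 from 1.56 ± 0.192 to 3.30 ± 0.531 (limma adjusted p = 0.0036) and was 1.92 ± 0.553 in G27 (limma adjusted p = 0.028 for M21 against G27, a call that ended without replicate 1 or 3 of either line).

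Of 43 tested cyclins, 2 rose and 9 fell in M21 (25.6%) and 2 rose and 4 fell in G27 (14.0%), each against NC82, and 1 was higher and 5 lower in M21 than in G27 (14.0%). These shares, which take both directions together, were near those of all genes. By direction, 13.0% of all tested genes rose and 11.3% fell in M21, and 7.87% rose and 6.05% fell in G27. The split by direction was not tested. The falls in M21 numbered 15 with no filter on low values and 14 with the filter on the mean, and 8 genes were lower in M21 than in G27 with no filter. Leaving out replicate 1 or 3 of M21, or replicate 2 or 3 of NC82, left 1 rise in M21, and without G27 replicate 1 or 3, 1 rose in G27. Without the 3 libraries high on the third component, 1 cyclin fell in G27. The cyclin Nitab4.5_0011267g0010 stood at 23.6 ± 1.22 in NC82, 41.7 ± 2.26 in M21 and 30.5 ± 1.78 in G27 (SD, n = 3), and all 3 comparisons passed (limma adjusted p = 3e-05, 0.0071 and 0.0037). The cyclin Nitab4.5_0000649g0180 fell from 8.20 ± 0.127 to 3.84 ± 0.285 in M21 and 4.57 ± 0.573 in G27 (limma adjusted p = 4.7e-05 and 0.0003).

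Of 59 tested receiver-domain genes, which hold response regulators and hybrid histidine kinases, 4 rose and 5 fell in M21 (15.3%) and 1 rose and 2 fell in G27 (5.08%), each against NC82. In M21 against G27 limma called 0 higher and 1 lower, with 6 higher at an unadjusted p under 0.05. The rises in M21 numbered 9 without M21 replicate 2 and 2 without NC82 replicate 1 or M21 replicate 1, and the falls 3 without replicate 1 or 2 of NC82 or M21. The 1 rise in G27 was lost when any G27 library, M21 replicate 3, or replicate 2 or 3 of NC82 was left out. Without M21 replicate 2, 2 rose in G27 and 6 were higher in M21 than in G27, so these counts depended on single libraries.

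Of 60 tested B-box and CCT-domain genes, 19 rose and 7 fell in M21 (43.3%) and 2 rose and 9 fell in G27 (18.3%), each against NC82. In M21 against G27 limma called 11 higher and 0 lower (18.3%), with 1 lower at an unadjusted p under 0.05. The rises in M21 numbered 9 to 11 without NC82 replicate 3 or M21 replicate 1 or 3. The falls in M21 numbered 1 to 4 without any NC82 library or M21 replicate 1. The falls in G27 numbered 4 to 5 without NC82 replicate 2 or 3, and its rises 0 to 1 without NC82 replicate 2 or 3, M21 replicate 1 or G27 replicate 1. The genes higher in M21 than in G27 numbered 5 to 6 without NC82 replicate 2, M21 replicate 1 or 3 or G27 replicate 1 or 3, and 3 without the 3 libraries high on the third component.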

How the data were processed

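RNA sequencing values of 9 young leaf libraries were used, 3 for each of NC82, M21 and G27, assigned by their labels. The authors deposited 1 normalized expression signal per gene and library; the header names no unit. Per the submitters' processing notes, HISAT2, StringTie and RSEM were used; their versions and roles, the build and annotation, and whether strand was used are not stated in labels or header. The 3 columns of group values were not used. Read counts are not in this table, so no counting intervals are given. Relative depths came from the most frequent ratio of low values in the 36 pairs of libraries.

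Genes that reached a value of 1 in 3 or more libraries were tested with limma 3.58.1 in R 4.3.3 on log2(value + 1), all 9 libraries in 1 fit, empirical Bayes with a mean trend, two-sided, with Benjamini-Hochberg adjustment over 33188 genes and a threshold of 0.05. The procedure was tested on simulated data. Members below the filter had an exact permutation test. Figures used Python 3.11.15 and matplotlib 3.10.9.

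The members, lists and tests were chosen with earlier results of these data known. Lists were word patterns on descriptions. Named genes were the members, called growth-regulating factors, the gene with the smallest p per direction in each other list (of these, the ones given in more than 1 comparison are named), neighbours and the 3 most similar profiles per member. The narrower QLQ list was added after the descriptions were seen.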

Additional observations from a re-analysis of the deposited data

How the results depend on the processing

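Alternatives were pseudocounts of 0.1 and 0.5, no filter or a filter on a mean of 0.1, median-ratio scaling, a replicate block, fits of only the groups compared, no mean trend, and leaving out each library or the 3 high on the third component together. Under all 18 of them Nitab4.5_0007901g0050 kept its direction and its calls, with log2 changes of 2.14 to 3.76 (M21 against NC82), 8.91 to 10.77 (G27 against NC82) and -7.01 to -6.59 (M21 against G27). Nitab4.5_0001993g0030 kept its direction in M21 against NC82 (-0.36 to -0.23) and in M21 against G27 (-0.40 to -0.33). The calls were lost under 5 and 4 of the 18 alternatives, each with fewer libraries. Leaving out 1 library gave -0.36 to -0.26 and -0.39 to -0.33 for these, and leaving out the 3 together gave -0.23 and -0.36. In G27 against NC82 this gene ranged from -0.01 (without NC82 replicate 2) to 0.13. Changes near 0 turned sign without being called: Nitab4.5_0000319g0250 in M21 against NC82 went from -0.17 to 0.01 (without M21 replicate 2) when 1 library was left out, and Nitab4.5_0000768g0010 in M21 against G27 from -0.06 to 0.09 when 1 library was left out (-0.0026 and -0.05 without M21 replicates 1 and 3, -0.06 without G27 replicate 1) and to -0.12 without the 3 libraries. The exact p of Nitab4.5_0002640g0040 lay between 0.039 and 0.33 when 1 library was left out, and that of Nitab4.5_0003799g0020 between 0.16 and 0.55.

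Over all genes, leaving out 1 library gave 5874 to 8371 calls in M21 against NC82, 3251 to 4750 in G27 against NC82 and 2283 to 4208 in M21 against G27, the lowest of the last without M21 replicate 1, against 8064, 4620 and 3941. Of the 40 pairs of a listed gene and a comparison that the naming rule gave, 28 kept their call under every alternative that could be fitted. Most pairs were picked for the smallest p in their list and direction, which favoured keeping the call, so this count says nothing about the lists. The 28 include both pairs of Nitab4.5_0005167g0090, which could be fitted under only 14 alternatives. That gene dropped below the filter when a G27 library was left out, so its calls could not be lost there. Same-numbered libraries of different genotypes had correlations of deviations from -0.215 to 0.343, so the numbers were not taken to pair them. With a replicate block, limma called 7846, 4443 and 3720 genes, and Nitab4.5_0001993g0030 had adjusted p of 0.038 and 0.033; the block changed no call of a tested member.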

Other observations

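A gene outside the family, chosen after its values were seen, had the second largest rise in G27. Nitab4.5_0000930g0090, whose description is unknown, stood at 1.18, 1.49 and 1.5 in NC82, at 0.74, 2.27 and 1.33 in M21, and at 230.5, 193.5 and 204.3 in G27. NC82 and M21 overlapped, and all G27 libraries lay far above them. The log2 change in G27 against NC82 was 6.46 (SE 0.18, limma adjusted p = 3.1e-08), in M21 against G27 -6.47 (limma adjusted p = 2.1e-08) and in M21 against NC82 -0.01 (limma adjusted p = 0.97). It and Nitab4.5_0007901g0050 were the only genes of the 33188 tested with a log2 change of at least 5 in G27, and the next largest rise was 4.10. Both calls held under all 18 alternatives, with adjusted p of at most 5.2e-06.

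In the G27 libraries the level of Nitab4.5_0007901g0050 was 3.30, 3.12 and 3.04 times that of Nitab4.5_0000930g0090, in M21 it was 6.76, 2.56 and 3.25 times, and in NC82 0.288, 0.168 and 0.167 times. Nitab4.5_0000930g0090 is the last numbered of 9 genes on its scaffold, as Nitab4.5_0007901g0050 is the last of 5 on its own. The gene numbered before it, Nitab4.5_0000930g0080, stood at 6.54 ± 0.645 in NC82, 6.48 ± 0.704 in M21 and 7.16 ± 1.19 in G27 (SD, n = 3; limma adjusted p = 0.63 in G27 against NC82).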
